A study of Homo sapiens with 32 samples.

Results

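The nuclear pore and mRNA export genes described here are 41 genes, taken by symbol from the 62703 identifiers of the count tables, and all 41 were present once in each table. They comprise 8 genes of the Y complex, 5 of the inner ring, 4 of the central channel, 3 of the pore membrane group, 7 of the cytoplasmic side, 3 of the nuclear basket, 3 export receptor genes and 8 genes of TREX, the complex that couples transcription to export. Counts were available for 32 libraries of HEK293T, a standard cell line of human embryonic kidney origin, from a control and from CRISPR/Cas9 knockouts of IGF2BP1, IGF2BP2 and IGF2BP3. The IGF2BP genes encode cytoplasmic RNA-binding proteins that are known for stabilising their target mRNAs. Poly(A) RNA from whole cells (total), nuclei and cytoplasm was sequenced from the same 4 genotypes. The control had received a guide RNA that targets no mammalian gene and was made in parallel. Each knockout was 1 clone, screened by protein and grown from a single GFP-positive cell after transient transfection with non-integrating plasmids that carried 3 guide RNAs and GFP, and no further treatment was given, so an effect of the clone and an effect of the deleted gene cannot be told apart. Per RNA kind there were 4 control libraries, 1 in each of batches 1 to 4, and 2 libraries per knockout: batches 1 and 2 for IGF2BP1, batches 3 and 4 for IGF2BP2 and IGF2BP3. Batch 5 had no control and consisted of 2 more cytoplasmic libraries without IGF2BP3. Levels given as without a gene are those of its knockout. The comparison addressed by the fractions is whether the export machinery changed in the knockouts whose mRNAs changed their distribution between nucleus and cytoplasm.

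The nuclear pore is a ring-shaped channel through the nuclear envelope. Y complexes and the inner ring form its scaffold, membrane nucleoporins anchor it, and nucleoporins with phenylalanine-glycine repeats fill the channel. A spliced mRNA is loaded with TREX, whose helicase DDX39B and adaptor ALYREF recruit the receptor NXF1-NXT1. The particle passes the basket and the channel, and on the cytoplasmic side the helicase DDX19B, with GLE1, NUP214 and NUP42, strips the receptor off. XPO1 exports proteins and some RNAs through the same channel with the GTPase RAN.

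Library totals lay between 13689067 and 26119480 counts, and no member had fewer than 247 counts in any library, so all 41 members passed the filter on low counts in every fit. The targeted gene was lower in its knockout in each RNA kind. In total RNA, IGF2BP1 stood at 5.31% of the control, IGF2BP2 at 40.2% and IGF2BP3 at 43.8%, each in its own knockout. Other IGF2BP genes were also called lower in total RNA. IGF2BP1 and IGF2BP3 stood at 74.7% and 71.5% of the control in the IGF2BP2 knockout, and IGF2BP1 at 71.8% in the IGF2BP3 knockout. In the IGF2BP1 knockout IGF2BP2 stood at 68.6%, but at 96.8% in nuclear and 105% in cytoplasmic RNA, both without a call. Total RNA gave no call for IGF2BP3 in the IGF2BP1 knockout (107%) or IGF2BP2 in the IGF2BP3 knockout (89.7%). The second total RNA library and the first nuclear RNA library of the IGF2BP1 knockout held identical counts for all 62703 identifiers, with 21232940 counts in each. At least 1 of them therefore does not hold what its label says, and the labels do not tell which. Counts of members for this knockout, and the changes of most members named in it, are therefore also given without the library in question. Such a fit leaves a lone library of the knockout, which is assumed to vary like the other groups. The changes from it are therefore given without a p-value. Of 5 marker genes of HEK293T cells (LIN28B, PAX2, LHX1, NEFM and INA), all were detected. Their summed level in total RNA was 324 to 363 CPM (counts scaled to the library's total, with TMM factors) in the control and 153 to 157 CPM in the IGF2BP3 knockout, with 3 markers called higher and 2 called lower, NEFM the most (-2.66 ± 0.10 on the log2 scale). Of 8 markers of other cell types, HBB was at 0 in every library, and ALB, CD3E, KRT5, PECAM1 and PTPRC stayed under 1 CPM. Their sum, 34.2 to 36.7 CPM in control total RNA and 68.2 to 69.2 CPM in the IGF2BP3 knockout, came mostly from COL1A1. Summed over 3 mitochondrial RNAs (MT-CO1, MT-ND4 and MT-CYB), the library with identical counts had 8809 CPM as total and 8830 CPM as nuclear RNA. The total RNA controls had 12475 to 15611 CPM and the nuclear controls 7684 to 9247 CPM. The other total and nuclear libraries of the IGF2BP1 knockout had 12841 and 10512.5 CPM. By this sum the library with identical counts resembled nuclear RNA. The part of these marker differences in the results that follow was not tested. The labels do not say whether libraries of a group came from separate cultures, so p-values measure only the spread between these libraries.

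The sequences shown are the 250 bases before a listed start of 5 members. In total RNA these members moved 1 way in all 3 knockouts past the threshold: NUP160, SEH1L, NUP188 and NUP88 were lower, and NUP210 was higher. The knockouts share controls, and the share of all genes that moved so is not given here. The IGF2BP1 call of SEH1L rests in part on the library with identical counts, without which the fall was smaller. The IGF2BP2 call of NUP210 passed in only part of the alternative settings. The sequences were taken from RefSeq (GRCh38.p14) and are written 5′ to 3′ on the strand of the gene. Capitals mark CCGGAAG or its reverse complement CTTCCGG, the core letters bound by ETS factors.
NUP160: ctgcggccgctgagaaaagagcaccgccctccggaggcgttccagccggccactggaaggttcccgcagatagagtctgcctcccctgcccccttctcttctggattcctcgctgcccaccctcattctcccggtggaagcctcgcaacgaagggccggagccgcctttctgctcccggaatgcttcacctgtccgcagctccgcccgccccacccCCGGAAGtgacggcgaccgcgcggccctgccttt
SEH1L: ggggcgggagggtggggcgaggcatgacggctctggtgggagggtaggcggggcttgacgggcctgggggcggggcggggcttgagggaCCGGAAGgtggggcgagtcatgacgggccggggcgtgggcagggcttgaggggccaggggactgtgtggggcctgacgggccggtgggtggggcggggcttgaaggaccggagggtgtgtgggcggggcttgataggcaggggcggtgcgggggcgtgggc
NUP188: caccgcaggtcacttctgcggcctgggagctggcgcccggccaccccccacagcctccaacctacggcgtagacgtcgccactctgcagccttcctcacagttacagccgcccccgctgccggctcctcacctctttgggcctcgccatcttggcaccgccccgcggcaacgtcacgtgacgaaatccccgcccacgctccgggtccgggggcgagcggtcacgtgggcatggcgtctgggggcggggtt
NUP88: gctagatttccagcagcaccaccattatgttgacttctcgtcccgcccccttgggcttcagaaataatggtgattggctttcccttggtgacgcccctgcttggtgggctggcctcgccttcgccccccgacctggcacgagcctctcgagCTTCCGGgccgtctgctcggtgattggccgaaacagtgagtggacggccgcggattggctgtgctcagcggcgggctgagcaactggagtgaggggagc
NUP210: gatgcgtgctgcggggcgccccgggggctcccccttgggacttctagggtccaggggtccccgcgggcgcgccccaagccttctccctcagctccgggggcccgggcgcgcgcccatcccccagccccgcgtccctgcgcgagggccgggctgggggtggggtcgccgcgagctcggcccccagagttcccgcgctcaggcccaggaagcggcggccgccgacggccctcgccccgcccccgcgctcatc

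The windows lie at chr11:47848351-47848600 on the minus strand for NUP160, chr18:12947761-12948010 on the plus strand for SEH1L, chr9:128947449-128947698 on the plus strand for NUP188, chr17:5419663-5419912 on the minus strand for NUP88 and chr3:13420323-13420572 on the minus strand for NUP210. The marked letters began 34 bases before the start of NUP160, 161 before that of SEH1L and 99 before that of NUP88, and they were not in the windows of NUP188 and NUP210. NUP160 has a further listed start, whose window did not hold them. The windows shown for SEH1L and NUP88 lie within the bounds of these genes in GENCODE 29, and that shown for NUP160 partly does. Promoters were listed for 38 of the 41 members, all except NUP43, THOC7 and GLE1, and of the 50 promoters of these members 44 had a start that lies in a GENCODE 29 transcript; the start of the NUP210 window shown does not, and those of the other windows shown do. The ETS letters stood in the windows of 17 of 38 members (44.7%), against 17.4% of 12435 genes that were tested in total RNA and 10.2% of all 27305 genes with a listed promoter of the same length. CCAAT or ATTGG stood in the windows of 15 of 38 members (39.5%) against 41.1% of the tested genes, and GGGCGG or CCGCCC in 22 of 38 (57.9%) against 73.4%. The palindromes TGACGTCA (CRE), CGCATGCG (NRF1) and CACGTG (E-box) stood in those of 4 (10.5%), 3 (7.89%) and 3 (7.89%) members, against 3.36%, 3.71% and 10.9% of the tested genes. Both strands were searched, letters could count for more than 1 motif, and the matches describe letters only.

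In total RNA of the control, levels per kb of merged exons differed most among the TREX genes. ALYREF, the mRNA-binding adaptor, had the highest level of all members with 124 ± 6.83 CPM per kb (SD, n = 4), and THOC1 of the same complex stood at 5.76 ± 0.225 CPM per kb. In the Y complex NUP133 (46.4 ± 1.16 CPM per kb) was highest and SEH1L (6.61 ± 0.0816) lowest, and in the inner ring NUP205 (61.2 ± 1.17) and NUP35 (5.38 ± 0.291) marked the ends. TPR, the coiled-coil filament of the basket, reached 58.8 ± 2.35 CPM per kb against 14.4 ± 0.158 for NUP50, and the receptor XPO1 reached 56.1 ± 2.3 against 14.1 ± 1.32 for NXF1. The channel genes were closer together, from NUP62 at 26.1 ± 0.203 to NUP58 at 11.5 ± 0.412, as were NUP210 at 38.2 ± 4.82 and AAAS at 21.4 ± 0.138 in the membrane group. On the cytoplasmic side GLE1 stood at 28.4 ± 1.54 CPM per kb and the helicase gene DDX19B at 4.38 ± 0.362, the lowest level of the 41. Levels between genes rest on GENCODE 29 exons, because the deposited FPKM values are scaled by the genomic length of a gene with its introns. The exons are merged over all annotated transcripts of a gene, so the order and the spans between genes depend on the annotation. SEH1L, with 10481 merged exon bases, stood below NUP37 (12.5 CPM per kb), with 3492, though its CPM was higher.

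Most members were lower in the IGF2BP3 knockout. In total RNA 33 of 41 fell and 2 rose at an adjusted p under 0.05, with a median log2 change of -0.45 over the members, while 23.4% of the 18745 genes tested fell and 23.5% rose. In nuclear RNA 28 fell and 3 rose (median -0.41; all genes 25.3% and 25.1%), and in cytoplasmic RNA 37 fell and 2 rose (median -0.58; all genes 33.2% and 31.5%). The members that did not fall in total RNA were NUP85, NUP98, NUP214, RAE1, GLE1 and THOC1, which were not called, and NUP210 and NXF1, which rose. The largest drops in total RNA left NUP93 at 49.7% and NUP35 at 49.9% of the control. In the IGF2BP2 knockout the counts were 21 members lower and 4 higher in total RNA (median -0.28; all genes 23.7% and 23.3%), 16 and 7 in nuclear RNA (median -0.11; all genes 24.9% and 24.8%) and 29 and 4 in cytoplasmic RNA (median -0.35; all genes 33.2% and 30.9%). Without IGF2BP1 fewer members were called, with 4 lower and 3 higher in total RNA (median -0.01, and 0.04 with upper quartile scaling; all genes 13.5% and 10.7%), 7 and 3 in nuclear RNA (median -0.08; all genes 13% and 12.7%), and 9 and 10 in cytoplasmic RNA (median -0.05; all genes 21.9% and 22.5%). These tests were edgeR quasi-likelihood F tests with batch as a term and Benjamini-Hochberg adjustment over all genes tested.

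One set of control libraries served all 3 knockouts, so their counts are not independent of each other. Without the total RNA library that equals a nuclear one, the IGF2BP1 knockout had 5 members lower and 3 higher in total RNA, and without the nuclear library that equals it 3 and 5 in nuclear RNA. Without control library 1, 19 members were called in total RNA of the IGF2BP1 knockout. Without its first total RNA library, only the library with identical counts is left for this knockout in total RNA. Calls in total RNA of the IGF2BP2 knockout were 15 without control library 3, 13 without control library 4, 14 without its first and 11 without its second library, against 25 with all. Those in nuclear RNA were 13, 12 and 14 without control library 3, control library 4 or its second library, against 23. In the IGF2BP3 knockout 22 members were called in total RNA without its first library, against 35. In nuclear RNA of the IGF2BP1 knockout 6 were called without control library 3 or 4, against 10. A fit without a knockout library leaves a lone library of that knockout, assumed to vary like the other groups. The shares of all genes called with a library left out are not given here. Whether these shifts are particular to the members can therefore not be told. Scaling to the upper quartile moved the median of all genes by 0.10 (IGF2BP2, total), 0.13 (IGF2BP3, total), 0.15 (IGF2BP2, cytoplasmic) and 0.17 (IGF2BP3, cytoplasmic) on the log2 scale. With it, members were 26 lower and 2 higher in total RNA and 35 lower and 3 higher in cytoplasmic RNA of the IGF2BP3 knockout, where 16.6% and 23.2% of all genes fell and 30.2% and 42.3% rose. Without IGF2BP2 they were 15 lower and 5 higher in total RNA (all genes 18.3% and 28.1%) and 23 lower and 9 higher in cytoplasmic RNA (all genes 25.1% and 40.2%). Without IGF2BP1 they were 2 lower and 7 higher in total RNA (all genes 11.0% and 13.5%). In single batches, 37 of 41 members were below the control of the same batch in both total RNA libraries of the IGF2BP3 knockout (all genes 41%), 30 in those without IGF2BP2 (all genes 41.4%) and 15 in those without IGF2BP1 (all genes 33.1%). The values are shares of all counts in bulk cells, in which fewer cells with an mRNA and less of it per cell cannot be told apart.

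**Figure D1:**
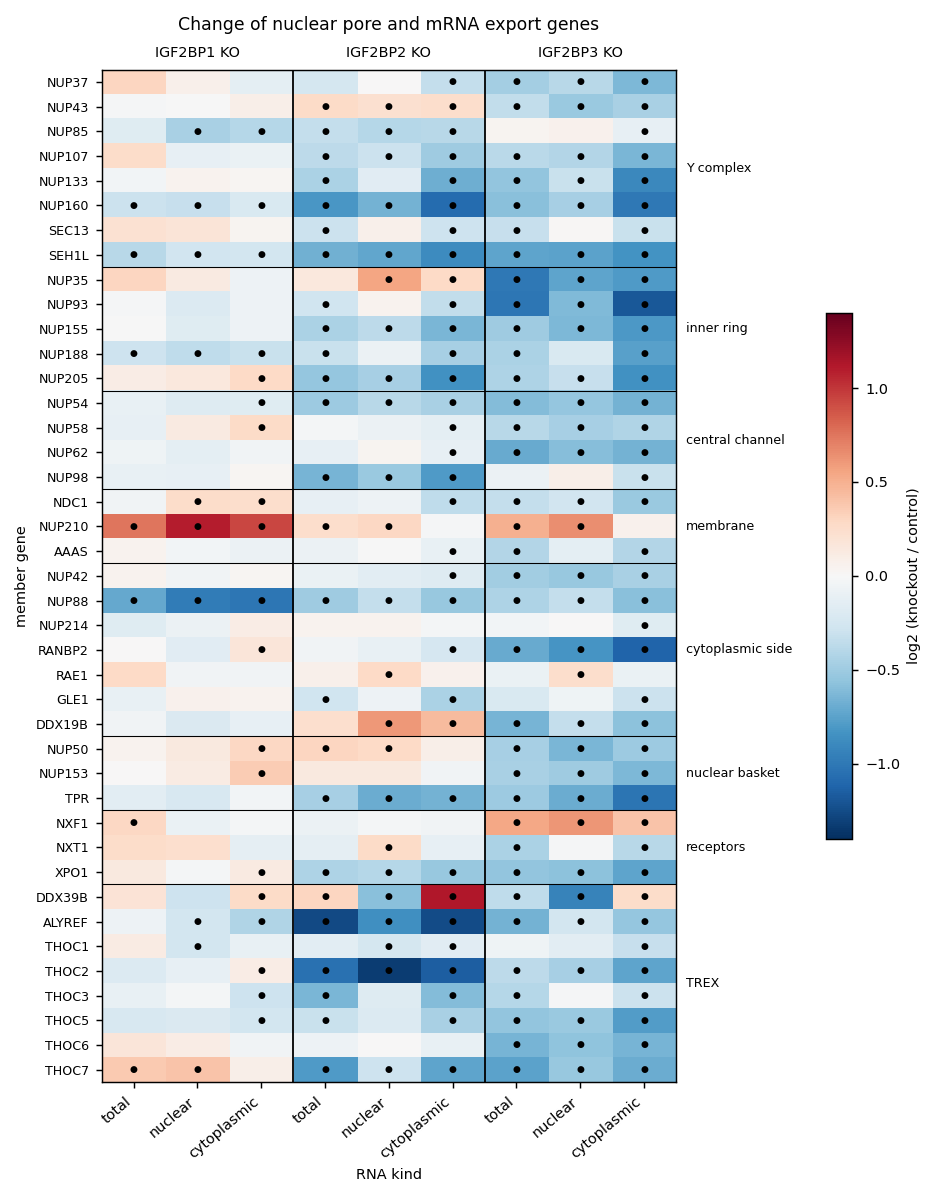
Log2 change of each of the 41 members against the control in the 3 knockouts and 3 RNA kinds, grouped by subcomplex, with dots at changes that passed an adjusted p under 0.05. Lower values prevail in the IGF2BP3 columns, where 33, 28 and 37 members fell in total, nuclear and cytoplasmic RNA.

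**Figure D2:**
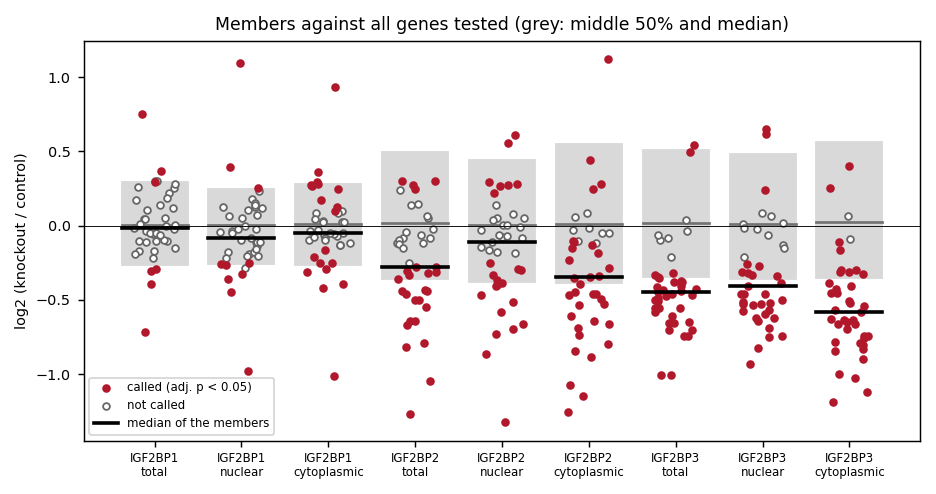
Log2 change of the 41 members (points, red where called) in each comparison, with the members' median (black line) beside the median and the middle 50% of all genes tested (grey box). The members' median is lowest in cytoplasmic RNA of the IGF2BP3 knockout (-0.58) and near 0 in total RNA without IGF2BP1 (-0.01).

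The Y complex is the outer scaffold of the pore. In total RNA 7 of its 8 genes fell in the IGF2BP3 knockout and 6 in the IGF2BP2 knockout, where 1 rose. In the IGF2BP1 knockout 2 fell. Of all genes, 23.4%, 23.7% and 13.5% fell in the same order of knockouts. For SEH1L (chr18:12947133-12987536, plus strand, GRCh38), a small subunit that also serves the GATOR2 complex, control libraries had 69.0, 70.6, 69.0 and 68.7 CPM, the IGF2BP1 knockout 59.9 and 47.1, the IGF2BP2 knockout 42.7 and 43.8 and the IGF2BP3 knockout 41.3 and 40.9 in total RNA. All 6 knockout libraries were below the 4 control libraries, which spanned little. SEH1L fell in total RNA of the IGF2BP1 (-0.39 ± 0.11, adjusted p = 0.0181), IGF2BP2 (-0.67 ± 0.11, adjusted p = 2.47e-04) and IGF2BP3 (-0.74 ± 0.11, adjusted p = 1.07e-04) knockouts on the log2 scale (± SE; edgeR). In cytoplasmic RNA its log2 changes were -0.25 ± 0.05, -0.88 ± 0.06 and -0.83 ± 0.05 in the same order, and in nuclear RNA -0.27 ± 0.09, -0.73 ± 0.10 and -0.75 ± 0.10. In the IGF2BP1 knockout the total and nuclear calls of SEH1L rest in part on the identical library. Without it, with a lone library left, the change was -0.20 in total RNA and -0.19 in nuclear RNA.

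NUP160 (chr11:47778087-47848555, minus strand), the large subunit in one arm of the Y, had in total RNA 234, 227, 236 and 228 CPM in the control, 184 and 189.8 without IGF2BP1, 127 and 136 without IGF2BP2 and 152 and 158 without IGF2BP3. The groups of knockout libraries did not overlap with the control, and those of the IGF2BP2 knockout were lowest. NUP160 fell in total RNA of each knockout, with log2 changes of -0.31 ± 0.09, -0.82 ± 0.09 and -0.58 ± 0.09 (edgeR adjusted p = 0.021, 9.28e-06 and 1.27e-04). In cytoplasmic RNA the changes were -0.21 ± 0.05, -1.07 ± 0.05 and -1.0 ± 0.05, each past the threshold. Without the identical library, which leaves a lone IGF2BP1 library, the change of NUP160 in total RNA was -0.35. NUP43, a propeller subunit of the Y, differed between knockouts. In total RNA the control had 132, 132, 126 and 139 CPM, the IGF2BP2 knockout 162 and 157 and the IGF2BP3 knockout 101 and 107, with the control between the 2 knockouts. It rose in the IGF2BP2 knockout (0.27 ± 0.09, adjusted p = 0.0231) and fell in the IGF2BP3 knockout (-0.35 ± 0.09, adjusted p = 0.00628), and its change in the IGF2BP1 knockout was -0.02 ± 0.09. The IGF2BP2 call of NUP43 in total RNA passed in 10 of 16 alternative settings. NUP133, the stalk subunit that contacts the membrane, had 273, 280.1, 289 and 286 CPM in the control, 207 and 216 without IGF2BP2 and 190.2 and 201 without IGF2BP3, and it fell in both (log2 -0.44 ± 0.08 and -0.56 ± 0.08), with 7.86% of its exon bases shared with another gene on the same strand. Of the other subunits, NUP37, NUP107 and SEC13 fell in the IGF2BP3 knockout by 0.48, 0.38 and 0.32 on the log2 scale, and NUP85 changed by 0.04 ± 0.10.

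The inner ring holds the channel together and binds the membrane. All 5 genes fell in total RNA of the IGF2BP3 knockout and 4 of 5 in the IGF2BP2 knockout, against 1 of 5 in the IGF2BP1 knockout. The shares of all genes that fell were 23.4%, 23.7% and 13.5%. NUP35, a small subunit that touches the membrane, had 20.3, 23.2, 21.9 and 21.8 CPM in the control, 24.1 and 29.7 without IGF2BP1, 25.6 and 22.7 without IGF2BP2 and 10.5 and 11.3 without IGF2BP3 in total RNA. The IGF2BP3 libraries were the lowest of all, and those of the IGF2BP1 and IGF2BP2 knockouts reached above the control. NUP35 fell in the IGF2BP3 knockout in total (-1.0 ± 0.12, adjusted p = 2.19e-05), nuclear (-0.74 ± 0.11) and cytoplasmic RNA (-0.79 ± 0.09). In the IGF2BP2 knockout it rose in nuclear (0.56 ± 0.11) and cytoplasmic RNA (0.28 ± 0.08), with 0.14 ± 0.11 in total RNA (not called). NUP93, the linker that recruits other inner ring subunits and the channel, had 144, 142, 141 and 139 CPM in the control, 145 and 139 without IGF2BP1, 113 and 118 without IGF2BP2 and 67.4 and 72.0 without IGF2BP3. The libraries of the IGF2BP1 knockout lay around the control, and those of the other 2 knockouts did not overlap with it. NUP93 fell in total RNA of both the IGF2BP2 (-0.28 ± 0.09, adjusted p = 0.0176) and IGF2BP3 (-1.01 ± 0.09, adjusted p = 1.83e-06) knockouts.

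NUP188 (chr9:128947699-129007096, plus strand), a large scaffold subunit, was at 346, 340.1, 321 and 327 CPM in total RNA of the control, 292 and 268 without IGF2BP1, 249.5 and 271 without IGF2BP2 and 233 and 242 without IGF2BP3. All knockout libraries were below all control libraries. It fell in total RNA of the 3 knockouts, with log2 changes of -0.29 ± 0.08, -0.32 ± 0.08 and -0.45 ± 0.08 (edgeR adjusted p = 0.0201, 0.00665 and 6.57e-04). In nuclear RNA the changes of NUP188 in the IGF2BP2 and IGF2BP3 knockouts were -0.08 ± 0.10 and -0.21 ± 0.10 and were not called, while in cytoplasmic RNA they were -0.47 ± 0.04 and -0.76 ± 0.04 and were. Without the identical library, with a lone library left, the IGF2BP1 change of NUP188 was -0.24 in total RNA and -0.14 in nuclear RNA. Of its exon bases, 3.53% overlap another gene on the same strand. The 2 other large subunits, NUP155 and NUP205, fell in total RNA of both the IGF2BP2 (-0.44 ± 0.09 and -0.55 ± 0.08) and IGF2BP3 (-0.50 ± 0.09 and -0.44 ± 0.08) knockouts, and NUP205 rose in cytoplasmic RNA of the IGF2BP1 knockout (0.28 ± 0.04).

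Among the 4 genes of the central channel, 3 fell in total RNA of the IGF2BP3 knockout (NUP54, NUP58 and NUP62; all genes 23.4%). In the IGF2BP2 knockout 2 fell (NUP54 and NUP98; all genes 23.7%). NUP98, a repeat nucleoporin on both faces of the pore, had 206, 211, 183 and 184 CPM in the control, 201 and 186 without IGF2BP1, 116 and 119 without IGF2BP2 and 168 and 179 without IGF2BP3. The IGF2BP2 libraries were far below the others, and those of the IGF2BP3 knockout lay just under the lowest control library. NUP98 fell in total RNA of the IGF2BP2 knockout (-0.65 ± 0.09, adjusted p = 5.85e-05), and its change in the IGF2BP3 knockout was -0.08 ± 0.09, adjusted p = 0.463. NUP62, which with NUP54 and NUP58 forms the trimer in the channel, changed by -0.12 ± 0.09 and -0.70 ± 0.09 in these knockouts, the second past the threshold. Of the 3 membrane genes, NUP210 rose while NDC1, a membrane anchor, and AAAS, its partner, fell in total RNA of the IGF2BP3 knockout (-0.34 ± 0.10 and -0.41 ± 0.09). NUP210 (chr3:13316235-13420309, minus strand), a single-pass membrane nucleoporin, had 354, 336, 289 and 269.7 CPM in total RNA of the control, 584 and 578 without IGF2BP1, 317 and 344 without IGF2BP2 and 397 and 390.5 without IGF2BP3. The IGF2BP1 and IGF2BP3 libraries were above every control library, and those of the IGF2BP2 knockout overlapped with the control.

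NUP210 rose in total RNA of the IGF2BP1 (0.75 ± 0.08, adjusted p = 5.36e-05), IGF2BP2 (0.24 ± 0.08, adjusted p = 0.031) and IGF2BP3 (0.50 ± 0.08, adjusted p = 3.94e-04) knockouts, and the IGF2BP2 call passed in 6 of 16 alternative settings. In cytoplasmic RNA the control had 175, 189, 165 and 184 CPM, the IGF2BP1 knockout 335 and 359.9, the IGF2BP2 knockout 177 and 167 and the IGF2BP3 knockout 186, 179, 136 and 152. There it rose in the IGF2BP1 knockout (0.93 ± 0.05), while the changes in the other 2 were -0.02 ± 0.05 and 0.06 ± 0.05 and did not pass. In nuclear RNA its changes were 1.10 ± 0.10, 0.29 ± 0.10 and 0.65 ± 0.10, all past the threshold. Without the identical library, NUP210 was higher in the lone remaining IGF2BP1 library by log2 0.73 in total RNA and 1.20 in nuclear RNA. With upper quartile scaling its cytoplasmic change in the IGF2BP2 knockout turned to 0.13 (edgeR adjusted p = 0.0206), and with a filter of 10 CPM to 0.12 (edgeR adjusted p = 0.0339).

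On the cytoplasmic side the receptor is removed from the mRNA. Here 4 of 7 genes fell in total RNA of the IGF2BP3 knockout, 2 in the IGF2BP2 knockout and 1 in the IGF2BP1 knockout. The shares of all genes were 23.4%, 23.7% and 13.5%, so the counts of the last 2 were near those of all genes. NUP88 (chr17:5360963-5420160, minus strand), which anchors NUP214 to the pore, had 114, 116, 127 and 136 CPM in total RNA of the control, 58.8 and 83.2 without IGF2BP1, 94.7 and 90.7 without IGF2BP2 and 99.2 and 95.6 without IGF2BP3. All 6 knockout libraries were below the control libraries, and those of the IGF2BP1 knockout were lowest. NUP88 fell in total RNA of each, with log2 changes of -0.72 ± 0.11, -0.50 ± 0.11 and -0.43 ± 0.11 (edgeR adjusted p = 6.43e-04, 0.00258 and 0.0067). Cytoplasmic RNA gave 135, 131, 125 and 121 CPM in the control and 65.0 and 67.3 without IGF2BP1, where it fell by 1.01 on the log2 scale. Without the identical library, with a lone library left, the IGF2BP1 change of NUP88 was -0.95 in total RNA and -0.94 in nuclear RNA. 18.7% of the exon bases of NUP88 lie opposite exons of RABEP1 and RPAIN, and whether the counting used strand is not given in the sources used here.

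RANBP2, the large filament protein with binding sites for RAN, had 268, 274, 271 and 261 CPM in total RNA of the control, 259 and 284 without IGF2BP1, 255 and 260.4 without IGF2BP2 and 154 and 173 without IGF2BP3. The IGF2BP3 libraries were far below the control, and those of the IGF2BP2 knockout lay just under its lowest library. It fell in total (-0.70 ± 0.09, adjusted p = 3.45e-05), nuclear (-0.83 ± 0.10) and cytoplasmic RNA (-1.12 ± 0.05) of the IGF2BP3 knockout. RANBP2 belongs to a gene family with near-identical copies (the RGPD genes), between which the counting could split reads, so its level is uncertain. DDX19B, the helicase, had 18.7, 18.5, 22.1 and 19.9 CPM in the control, 18.4 and 17.5 without IGF2BP1, 25.4 and 24.2 without IGF2BP2 and 13.1 and 13.6 without IGF2BP3. The IGF2BP2 libraries were above all control libraries and the IGF2BP3 libraries well below them, with the IGF2BP1 libraries just under the lowest control library. DDX19B fell in total RNA of the IGF2BP3 knockout (-0.66 ± 0.11, adjusted p = 4.22e-04). Without IGF2BP2 it rose in nuclear (0.61 ± 0.12) and cytoplasmic RNA (0.44 ± 0.07), with 0.24 ± 0.11 in total RNA (not called), and 15.7% of its exon bases are shared with another gene on the same strand. In the basket, which receives the mRNA inside the nucleus, NUP50, NUP153 and TPR all fell in total RNA of the IGF2BP3 knockout (-0.47 ± 0.10, -0.46 ± 0.10 and -0.51 ± 0.08). Without IGF2BP2, TPR fell (-0.46 ± 0.08), NUP50 rose (0.30 ± 0.10) and NUP153 was at 0.14 ± 0.10 (not called).

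Of the receptors, NXF1 rose where most members fell. NXF1 (chr11:62792123-62806302, minus strand), the general mRNA export receptor, had 93.2, 94.9, 83.0 and 77.8 CPM in total RNA of the control, 110.3 and 119.8 without IGF2BP1, 73.4 and 78.5 without IGF2BP2 and 113 and 121 without IGF2BP3. The libraries of the IGF2BP1 and IGF2BP3 knockouts were above all control libraries, and those of the IGF2BP2 knockout overlapped with it. It rose in the IGF2BP3 knockout in total (0.54 ± 0.09, adjusted p = 4.29e-04), nuclear (0.62 ± 0.09) and cytoplasmic RNA (0.40 ± 0.05), and in total RNA without IGF2BP1 (0.29 ± 0.09, adjusted p = 0.0381). The IGF2BP1 call passed in 9 of 16 alternative settings. Without the library with identical counts, which leaves a lone IGF2BP1 library, the change was 0.25. NXT1, its partner, fell in total RNA of the IGF2BP3 knockout (-0.44 ± 0.12), as did XPO1 (-0.55 ± 0.08), which also fell in the IGF2BP2 knockout (-0.44 ± 0.08).

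Among the 8 TREX genes, 7 fell in total RNA of the IGF2BP3 knockout (all genes 23.4%) and 5 in the IGF2BP2 knockout (all genes 23.7%), where DDX39B rose. ALYREF (chr17:81887844-81891586, minus strand) had 188, 185, 197 and 209 CPM in the control, 165 and 192 without IGF2BP1, 87.8 and 81.0 without IGF2BP2 and 131 and 127 without IGF2BP3. The IGF2BP2 libraries were lowest, the IGF2BP3 libraries lay between them and the control, and the IGF2BP1 libraries overlapped with the control. ALYREF fell in total RNA of both the IGF2BP2 (-1.27 ± 0.10, adjusted p = 6.66e-07) and IGF2BP3 knockouts (-0.66 ± 0.09, adjusted p = 1.01e-04), to 41.6% and 63.4% of the control. THOC2, the scaffold of the THO core of TREX, had 367, 378, 371 and 359 CPM in the control, 339 and 314 without IGF2BP1, 179.9 and 173 without IGF2BP2 and 275 and 289 without IGF2BP3. All 6 knockout libraries were below the control, those of the IGF2BP2 knockout the most. It fell in the IGF2BP2 knockout in total (-1.05 ± 0.09, adjusted p = 1.25e-06), nuclear (-1.33 ± 0.11) and cytoplasmic RNA (-1.15 ± 0.04), and in total RNA of the IGF2BP3 knockout (-0.37 ± 0.08). THOC7, a small THO subunit, had 51.1, 52.9, 64.0 and 66.9 CPM in the control, 61.6 and 73.2 without IGF2BP1, 39.0 and 36.7 without IGF2BP2 and 38.2 and 39.8 without IGF2BP3. It rose in total RNA without IGF2BP1 (0.37 ± 0.10) and fell in the other 2 (-0.79 ± 0.10 and -0.75 ± 0.10). Without the library with identical counts, which leaves a lone IGF2BP1 library, the rise was 0.28. The remaining THO genes THOC3, THOC5 and THOC6 fell in total RNA of the IGF2BP3 knockout (-0.40 ± 0.10, -0.56 ± 0.09 and -0.65 ± 0.13), and THOC1 was at -0.06 ± 0.10 (not called).

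**Figure D3:**
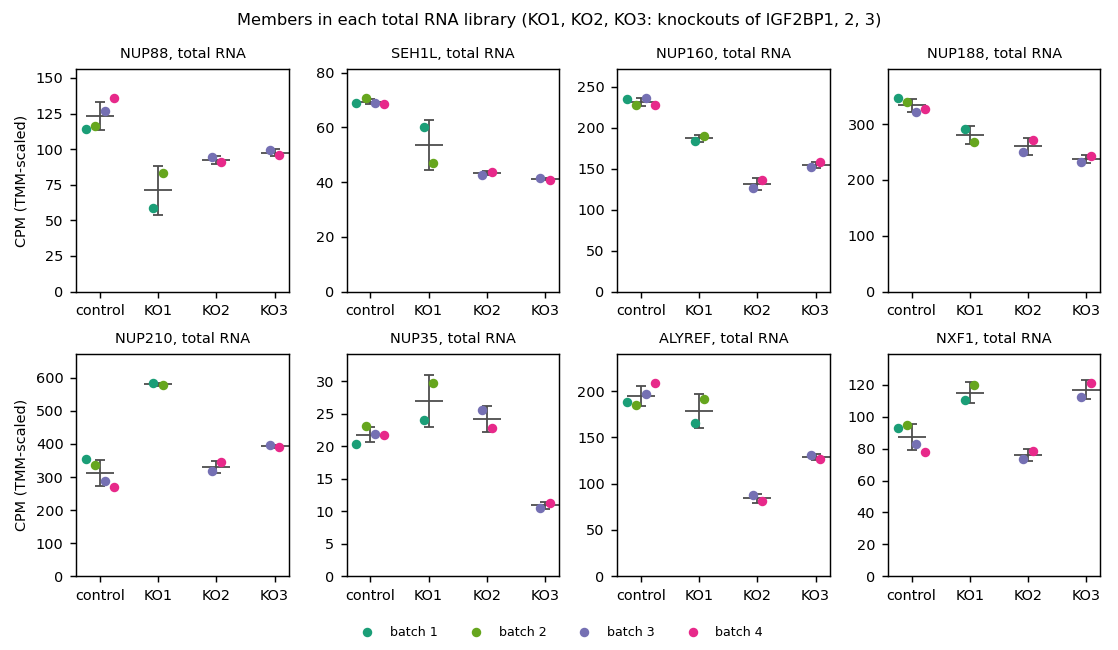
Level in total RNA (CPM, TMM-scaled) of 8 members in each library, by genotype, with points marked by batch and bars for the mean and SD of a group. NUP88, SEH1L, NUP160 and NUP188 are below the control in all 6 knockout libraries, and NUP210 is highest in the IGF2BP1 knockout, at 584 and 578 CPM.

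The cytoplasmic IGF2BP3 libraries of batch 5 stood apart from those of batches 3 and 4. In batches 3 and 4, 38 members were below all control libraries in both libraries (all genes 34.4%), with a median log2 ratio to the control mean of -0.63, and the count was 25 in batch 5 (all genes 29.5%), with a median of -0.21. ALYREF had mean levels of 273, 181 and 297 CPM in the control, batches 3 and 4, and batch 5, so that its drop was not seen in batch 5. SEH1L stood at 74.2, 38.2 and 67.2 CPM in the same order, whereas RANBP2 was low in both sets with 128, 50.4 and 67.1 CPM. Members above all control libraries in batch 5 were SEC13, RAE1, NXF1, NXT1, DDX39B and ALYREF, against 30.1% of all genes. Since batch 5 held no control, it adds to the spread only in the fit, where the knockout effect comes from batches 3 and 4, and batch and library cannot be told apart. The nuclear RNA marker NEAT1 also differed between these libraries, with 592 and 583 CPM in batches 3 and 4 and 199.7 and 203 CPM in batch 5. Over the 5 nuclear RNA markers the summed level ranged from 275 to 702 CPM in the 4 libraries, and its part in the difference was not tested.

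The IGF2BP2 and IGF2BP3 knockouts shared batches 3 and 4 and were compared directly. In total RNA 14 members were lower and 7 higher in the IGF2BP3 knockout (all genes 21.5% and 21.8%), in nuclear RNA 17 and 6 (all genes 24.1% and 24.1%), and in cytoplasmic RNA 27 and 7 (all genes 31.5% and 31.3%). In all 3 RNA kinds 13 members were lower and 5 were higher in the IGF2BP3 knockout. The share of all genes that meet this in all 3 RNA kinds is not given here, so these counts have no reference. NUP35 (-1.15 ± 0.12), DDX19B (-0.90 ± 0.11) and NUP93 (-0.73 ± 0.09) were the lower members with the greatest of the smallest changes over the 3 RNA kinds, which is the rule by which they are named, and are given here for total RNA, with edgeR adjusted p = 8.98e-06, 3.97e-05 and 3.17e-05. ALYREF (0.61 ± 0.10), NUP98 (0.56 ± 0.09) and NXF1 (0.62 ± 0.09) were higher in the IGF2BP3 knockout, with edgeR adjusted p = 2.33e-04, 1.95e-04 and 1.69e-04. The IGF2BP2 knockout was thus the lower of the pair for the adaptor ALYREF and for NUP98, and the IGF2BP3 knockout for the inner ring genes NUP35 and NUP93 and for the helicase gene DDX19B.

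In control cells 20 members had a higher share of counts in nuclear RNA and 13 a higher share in cytoplasmic RNA (32.6% and 33.3% of the 16246 genes tested). DDX39B (1.56 ± 0.07 on the log2 scale), RANBP2 (1.26 ± 0.07) and TPR (1.16 ± 0.07) were the most nuclear, followed by THOC2 (0.70 ± 0.07). THOC7 (-0.74 ± 0.07), THOC3 (-0.49 ± 0.06) and ALYREF (-0.41 ± 0.07) were the most cytoplasmic, and so TREX held both ends of the order. Each is a relative share, since both fractions were scaled to the same total. Across the 41 members the nuclear share rose with log2 merged exon length (Pearson's r 0.45, Spearman's rho 0.40, the points sharing the same libraries), and over 15729 genes r was 0.01 and rho 0.15.

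The nuclear to cytoplasmic ratio was tested as a knockout by compartment interaction within batches. 1 member fell and 0 rose in the IGF2BP1 knockout (all genes 1.76% and 2.36%), 1 fell and 10 rose in the IGF2BP2 knockout (all genes 9.71% and 7.77%), and 1 fell and 7 rose in the IGF2BP3 knockout (all genes 6.8% and 4.07%). DDX39B was the member that fell in all 3. In the IGF2BP2 knockout the members whose ratio rose were NUP133, NUP160 and SEC13 of the Y complex, NUP93, NUP188 and NUP205 of the inner ring, GLE1, and THOC3, THOC7 and ALYREF of TREX. In the IGF2BP3 knockout they were NUP133, NUP160, NUP93, NUP188, NUP205, NUP98 and NUP210. NUP133 had nuclear to cytoplasmic ratios of 1.33, 1.31, 1.13 and 1.27 in control batches 1 to 4, 1.78 and 1.67 without IGF2BP2 and 1.78 and 1.81 without IGF2BP3. Both knockouts were above all control ratios, with log2 changes of 0.49 ± 0.11, adjusted p = 8.09e-04 and 0.52 ± 0.11, adjusted p = 3.66e-04. The ratio of THOC7 was 0.73, 0.64, 0.55 and 0.64 in the control and 0.81 and 0.80 without IGF2BP2, a change of 0.40 ± 0.12, adjusted p = 0.00941, which passed in 4 of 8 alternative settings. NUP210 rose in ratio in the IGF2BP3 knockout (0.53 ± 0.12, adjusted p = 4.54e-04), in 5 of 8 settings. With batch 3 or batch 4 left out, DDX39B was the 1 member called in the ratio of each of these knockouts, so the rises were called only with both batches in the fit. Without a batch term 4 members were called in the IGF2BP2 and 2 in the IGF2BP3 knockout.

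DDX39B (chr6:31530219-31542448, minus strand), the TREX helicase, was the member whose ratio fell in each knockout. In nuclear RNA the control had 334, 387, 432 and 379 CPM, the IGF2BP1 knockout 349 and 249, the IGF2BP2 knockout 276 and 264 and the IGF2BP3 knockout 209 and 214. In cytoplasmic RNA the control had 118, 119.7, 123 and 126 CPM, the IGF2BP1 knockout 145 and 141, the IGF2BP2 knockout 269.7 and 272 and the IGF2BP3 knockout 146, 151, 156 and 159.8. All knockout libraries were above all control libraries in the cytoplasm, and in the nucleus those of the IGF2BP2 and IGF2BP3 knockouts were below them. Its nuclear to cytoplasmic ratio was 2.83, 3.24, 3.51 and 3.00 in control batches 1 to 4, 2.41 and 1.77 without IGF2BP1, 1.02 and 0.97 without IGF2BP2 and 1.43 and 1.42 without IGF2BP3. The ratio fell in each, with log2 changes of -0.54 ± 0.12, -1.74 ± 0.12 and -1.25 ± 0.12 (edgeR adjusted p = 0.00202, 6.04e-27 and 4.55e-16). In total RNA DDX39B had 269.6, 264, 316 and 270.4 CPM in the control, 265 and 348 without IGF2BP1, 356 and 366 without IGF2BP2 and 215 and 244 without IGF2BP3, with changes of 0.19 ± 0.11, adjusted p = 0.262, 0.30 ± 0.11, adjusted p = 0.0459 and -0.35 ± 0.11, adjusted p = 0.022. The total RNA calls passed in 9 of 16 (IGF2BP2) and 9 of 16 (IGF2BP3) alternative settings. The IGF2BP1 ratio call involves the identical nuclear library of batch 1. With batch 1 left out the DDX39B change was -0.88 and with batch 2 left out -0.26, each from a lone knockout library per fraction.

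RNAs that are retained in the nucleus also fell in this ratio. Of 5 such markers (MALAT1, NEAT1, KCNQ1OT1, MEG3 and SNHG14), MEG3 and SNHG14 were too low to be tested, and of the other 3, 2 fell in the IGF2BP1 knockout and 3 in each of the IGF2BP2 and IGF2BP3 knockouts. The ratio of MALAT1 changed by -0.47 ± 0.14, -1.76 ± 0.14 and -1.24 ± 0.13 in the 3 knockouts, that of NEAT1 by -0.43 ± 0.12, -1.28 ± 0.12 and -0.52 ± 0.12, and that of KCNQ1OT1 by -0.23 ± 0.19 (not called), -1.94 ± 0.24 and -1.77 ± 0.21. Their summed level in cytoplasmic RNA was 138 to 161 CPM in the control, 175 to 178 without IGF2BP1, 591 to 608 without IGF2BP2 and 275 to 702 without IGF2BP3, and in nuclear RNA 284 to 375, 267 to 345, 484 to 527 and 904 to 1039 CPM. In total RNA it was 265 to 324, 298 to 345, 722 to 741 and 1068 to 1308 CPM in the same order. Of 5 cytoplasmic mRNA markers 1, 3 and 0 rose in ratio in the 3 knockouts, and of 3 mitochondrial RNAs 3 rose in the IGF2BP3 knockout. The part of these fraction markers in the ratio of DDX39B and of the other members was not tested. RANBP2 and TPR, the next most nuclear members in the control, changed in ratio by -0.31 ± 0.11 and -0.17 ± 0.12 without IGF2BP1, 0.08 ± 0.11 and -0.08 ± 0.12 without IGF2BP2 and 0.23 ± 0.12 and 0.27 ± 0.12 without IGF2BP3, none past the threshold. Of the exon bases of DDX39B, 30.8% are shared on the same strand with the readthrough gene ATP6V1G2-DDX39B and with SNORD84. The readthrough gene had 0 to 3 counts in a library, and the antisense gene of DDX39B had 0 to 6.

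**Figure D4:**
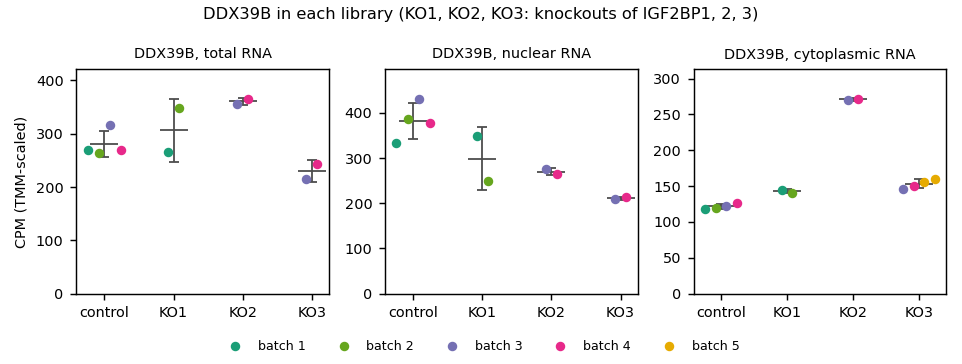
DDX39B level (CPM, TMM-scaled) in each library of total, nuclear and cytoplasmic RNA, by genotype. Cytoplasmic levels are highest in the IGF2BP2 knockout, at 269.7 and 272 CPM, and nuclear levels lowest in the IGF2BP3 knockout, at 209 and 214 CPM.

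**Figure D5:**
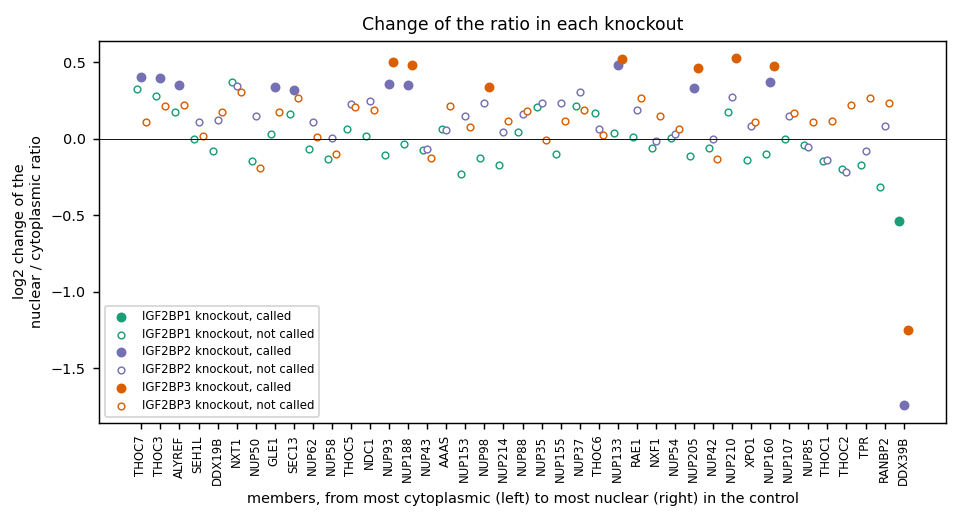
Log2 change of the nuclear to cytoplasmic ratio of each member in the 3 knockouts, ordered from the most cytoplasmic to the most nuclear member in the control. DDX39B, at the nuclear end, falls in each knockout, most in the IGF2BP2 knockout (-1.74).

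A further 30 genes of pore, export and RAN cycle that are no members were examined in the same fits, of which 29 passed the filter (not NXF3). In total RNA 3 fell and 4 rose without IGF2BP1, near the shares of all genes (13.5% and 10.7%). Without IGF2BP2 17 fell and 1 rose (all genes 23.7% and 23.3%), and without IGF2BP3 15 and 1 (all genes 23.4% and 23.5%). RCC1, the exchange factor of RAN, fell in the IGF2BP3 knockout from 345 ± 14.8 to 142 ± 6.89 CPM (SD, n = 4 and 2; -1.28 ± 0.10, adjusted p = 6.54e-07), as did RANBP1, a RAN-binding cofactor (-1.08 ± 0.09, adjusted p = 1.45e-06). RAN itself (-1.02 ± 0.09, adjusted p = 1.71e-06) and SEM1, a subunit of the TREX-2 complex and the proteasome (-1.15 ± 0.10, adjusted p = 1.85e-06), fell in the IGF2BP2 knockout. In the IGF2BP1 knockout the cap-binding gene NCBP3 fell (-1.13 ± 0.09, adjusted p = 4.90e-06) and RANGAP1, the activator of RAN's GTPase, rose (0.38 ± 0.09, adjusted p = 0.0105). Without the library with identical counts these changes were -1.02 and 0.22, each from a lone IGF2BP1 library. The paralog of DDX39B, DDX39A, fell in total RNA of both the IGF2BP2 (-0.40 ± 0.12) and IGF2BP3 knockouts (-0.33 ± 0.11), and its ratio changed by 0.13 ± 0.11, 0.01 ± 0.11 and 0.06 ± 0.11 in the 3 knockouts, none past the threshold. DDX19A, the paralog of DDX19B, fell in total RNA of the IGF2BP3 knockout (-0.65 ± 0.11) and was at -0.22 ± 0.11 in the IGF2BP2 knockout (not called). NXT2, the paralog of NXT1, changed by 0.08 ± 0.17, 0.19 ± 0.16 and 0.12 ± 0.16 without a call.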

How the data were processed

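Gene counts of 32 libraries were used as deposited. The authors' read counts are whole numbers per gene, and the submitters' processing notes name STAR, featureCounts, DESeq2 1.44.0 and GRCh38, without roles, and the strand setting and annotation are not given in the sources used here. The deposited FPKM values correspond to counts per genomic gene span: for 10411 genes with over 200 counts the departure was at most 1.33%, so they served only for alternatives on log2(FPKM + 1) or log2(FPKM + 0.1), with a filter of 0.5 FPKM. Levels between genes were instead computed as CPM per kb of merged GENCODE 29 exons, also for the highest and lowest member of each subcomplex. Identifiers without a symbol (20403) held 0.349% to 0.713% of counts.

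Each RNA kind was fitted with edgeR 4.0.16 (R 4.3.3; TMM, filterByExpr, quasi-likelihood F test) with batch and knockout as terms over all its libraries. The ratio was the knockout by compartment interaction over nuclear and cytoplasmic libraries of batches 1 to 4. Adjustment was over all genes tested, with calls at 0.05, and the scripts were tested on simulated data. The biological coefficient of variation was 7.87% for total RNA, 6.88% for nuclear RNA and 2.89% for cytoplasmic RNA. limma 3.58.1 and DESeq2 1.42.0 gave alternatives, besides other scalings, filters, batch terms and left-out libraries.

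The labels name a batch for each library, so batch was kept as a term. Same-batch deviations correlated between -0.08 and 0.01 in knockout and control. Library values are given for members called in 1 direction in the 3 RNA kinds of a knockout, in total RNA of all knockouts, in the ratio, or between the IGF2BP2 and IGF2BP3 knockouts, up to 3 per direction (2 for the ratio) by size. Of the other export genes up to 2 per knockout, by size in total RNA, and the paralogs of members are named. The members, lists and rules were chosen with earlier results of these data known.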

Additional observations from a re-analysis of the deposited data

Results flagged for a closer look

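Groups of 4 libraries were the controls of each RNA kind and the cytoplasmic IGF2BP3 knockout. In these, 5 of 164 sets of values had 1 library apart from the others by Dixon's criterion, all 5 in controls. Chance meets this criterion in about 1 of 20 groups. DDX39B had 316 CPM in total RNA of control library 3, against 264 to 270.4 in the others. NUP50 had 122 CPM in control library 1 and NUP58 126 CPM in control library 4 of total RNA. In cytoplasmic RNA DDX19B had 24.8 CPM in control library 2 and NUP62 165 CPM in control library 3, both below the others.

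Changes in nuclear and cytoplasmic RNA differed by the edgeR interaction test for DDX39B in the IGF2BP1 (-0.54), IGF2BP2 (-1.74) and IGF2BP3 (-1.25) knockouts, as log2 changes of the nuclear to cytoplasmic ratio. In the IGF2BP2 knockout the difference was 0.49 for NUP133, 0.37 for NUP160, 0.32 for SEC13, 0.36 for NUP93, 0.35 for NUP188, 0.34 for NUP205, 0.34 for GLE1, 0.35 for ALYREF, 0.40 for THOC3 and 0.40 for THOC7. In the IGF2BP3 knockout it was 0.52 for NUP133, 0.48 for NUP160, 0.50 for NUP93, 0.48 for NUP188, 0.46 for NUP205, 0.34 for NUP98 and 0.53 for NUP210.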

How the results depend on the processing

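Counts of called members without 1 library ranged from 6 to 20 (total), 6 to 10 (nuclear) and 16 to 20 (cytoplasmic) in the IGF2BP1 knockout, from 11 to 28, 12 to 24 and 29 to 32 in the IGF2BP2 knockout, and from 22 to 36, 23 to 32 and 37 to 39 in the IGF2BP3 knockout. Without 1 batch the ratio gave 0 to 1 in the IGF2BP1 knockout and 1 in each of the other knockouts, with DDX39B the member called. IGF2BP3 against IGF2BP2 ranged from 13 to 14 (total), 18 to 19 (nuclear) and 29 to 34 (cytoplasmic), and the control fractions from 29 to 33. A lone remaining library of a knockout is assumed to vary like the other groups. The shares of all genes in these fits are not given here, so the counts have no reference. In total RNA without the first library of the IGF2BP1 knockout, the lone library is the one with identical counts.

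Without batch as the replicate block, 8 members were called in cytoplasmic RNA of the IGF2BP1 knockout, 19 between IGF2BP3 and IGF2BP2 in cytoplasmic RNA, and 2, 4 and 2 in the ratio of the 3 knockouts, and NUP133 turned to 0.028 between IGF2BP3 and IGF2BP2 in cytoplasmic RNA. On log2(FPKM + 1) limma called 3 members in total and 3 in nuclear RNA of the IGF2BP1 knockout; with a pseudocount of 0.1 these were 2 and 3, and 12 in nuclear RNA of the IGF2BP2 knockout; over all genes they were 2, 3 and 11, and 19 in nuclear RNA of the IGF2BP3 knockout. DESeq2 called 6 in nuclear RNA of the IGF2BP1 knockout and 2 in the ratio of the IGF2BP2 knockout, and a filter of 10 CPM left 5 there. RLE scaling gave 2 in the IGF2BP1 ratio, and its own batches alone gave 2 in total and 4 in nuclear RNA. NUP210 turned to 0.13 (upper quartile) and 0.12 (10 CPM filter) in cytoplasmic RNA of the IGF2BP2 knockout. Of 3546 values of the 17 named members under alternatives, 3210 kept direction and side of the threshold, 292 lost and 41 gained a call, and 3 reversed. Shares of all genes are not given beside these counts, and the cause was not tested.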
